A study of Mus musculus with 10 samples.

Results

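The genes described here are the 44 voltage-gated sodium, calcium and hyperpolarization-activated (HCN) channel genes, out of 30406 genes whose identifiers occurred in the gene lists of all 10 libraries. They were chosen by name, as every symbol that begins with Scn and a digit, begins with Cacn, or names an HCN channel. This rule uses no measured value, though the choice was made with earlier results of these data known. They comprised 10 sodium channel alpha subunits, 4 sodium channel beta subunits, 10 calcium channel alpha1 subunits, 4 alpha2delta subunits, 4 calcium channel beta subunits, 8 gamma subunits or transmembrane AMPA receptor regulatory proteins (TARPs), and 4 HCN channels. Their RNA was counted in single cells punched from mouse medial prefrontal cortex (males of the C57BL/6N strain, over 2 months old) 1 day after the last tube test, a contest in which paired mice meet in a narrow tube. The 5 rank 1 libraries came from mice at the top of the social hierarchy and the 5 rank 4 libraries from mice at the bottom, and no drug or transgene was named for either group. Each library pooled the papain-digested tissue of 2 or 3 mice, so the library was the replicate, and the labels call the libraries of a rank independent biological replicates.

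Voltage-gated sodium channels carry the rising phase of the action potential. Their alpha subunit forms the pore, and beta subunits set gating and surface level. Calcium channel alpha1 subunits form pores of the L, P/Q, N, R and T types, which feed calcium into dendrites, cell bodies and release sites, while alpha2delta and beta subunits bring the pore to the membrane. The gamma family is named after a muscle channel subunit, but most members expressed in brain are TARPs, which carry AMPA-type glutamate receptors to synapses. HCN channels open on hyperpolarization and set resting potential and dendritic integration, and they are known for their abundance in thick-tufted pyramidal cells of layer 5 and in fast-spiking interneurons.

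Start regions were read for 32 of the 44 members, from RefSeq promoter windows on GRCm38.p6. Shown are the 250 bases before the RefSeq start of the 3 alpha2delta genes that set the interneuron types apart (given with those cells) and of Scn1a, the sodium channel with the largest log2 fold change toward inhibitory over excitatory neurons. Capitals mark each GC box, searched as GGGCGG on either strand. The Cacna2d2 window lies within the gene as the GRCm38 annotation used for gene positions gives it, since that gene starts further upstream, and the Scn1a window overlaps the annotated gene by its last bases.
Cacna2d1 (chr5:15934441-15934690, plus strand): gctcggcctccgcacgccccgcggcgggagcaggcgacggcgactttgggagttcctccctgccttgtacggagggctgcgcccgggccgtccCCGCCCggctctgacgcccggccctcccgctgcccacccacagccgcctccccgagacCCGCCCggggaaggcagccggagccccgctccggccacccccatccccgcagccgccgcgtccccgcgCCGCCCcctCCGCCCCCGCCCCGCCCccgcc
Cacna2d2 (chr9:107399630-107399879, plus strand): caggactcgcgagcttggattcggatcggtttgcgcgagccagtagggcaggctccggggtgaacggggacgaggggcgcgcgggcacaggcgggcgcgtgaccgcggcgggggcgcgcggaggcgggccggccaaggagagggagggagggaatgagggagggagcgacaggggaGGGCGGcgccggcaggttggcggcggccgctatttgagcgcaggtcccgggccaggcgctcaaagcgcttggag
Cacna2d3 (chr14:29721865-29722114, minus strand): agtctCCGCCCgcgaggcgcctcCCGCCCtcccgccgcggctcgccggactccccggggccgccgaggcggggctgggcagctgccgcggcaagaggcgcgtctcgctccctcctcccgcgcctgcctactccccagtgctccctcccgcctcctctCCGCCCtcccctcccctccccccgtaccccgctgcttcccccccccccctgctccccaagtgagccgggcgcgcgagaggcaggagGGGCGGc
Scn1a (chr2:66440838-66441087, minus strand): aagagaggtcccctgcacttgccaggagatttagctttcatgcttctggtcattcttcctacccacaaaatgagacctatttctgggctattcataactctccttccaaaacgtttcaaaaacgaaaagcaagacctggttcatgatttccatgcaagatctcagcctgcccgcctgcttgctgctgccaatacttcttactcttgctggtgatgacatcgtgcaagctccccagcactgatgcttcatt
The genes themselves lie at chr5:15934691-16374511 (Cacna2d1, ENSMUSG00000040118), chr9:107399612-107529343 (Cacna2d2, ENSMUSG00000010066), chr14:28904943-29721864 (Cacna2d3, ENSMUSG00000021991) and chr2:66270778-66440840 (Scn1a, ENSMUSG00000064329) in the GRCm38 annotation. The window of Cacna2d1 held 6 GC boxes and 36 CpG dinucleotides, that of Cacna2d2 held 1 and 34, and that of Cacna2d3 held 4 and 30. The Scn1a window held 0 GC boxes and 4 CpG, against a median of 6 CpG over all 32851 windows of this length. A GC box was present in 32.7% of all windows, in 14 of 29 calcium channel windows (48.3%), in 1 of 12 sodium channel windows (8.33%) and in 2 of 2 HCN windows. A TATA box, searched as TATAAA on either strand, was present in 12.4% of all windows, in 1 of 29 calcium channel windows and in 1 of 12 sodium channel windows. The motifs have no letter in common and cannot overlap each other. These are matches of letters in a fixed window, and the data do not bear on the binding of any factor.

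From 64937 barcodes 45763 cells were kept, 1448 to 12599 per library, with library totals of 4438653 to 29253728 unique molecular identifiers (UMIs, 1 per captured RNA molecule) and medians of 1327 to 2673.5 UMIs per kept cell. The libraries of replicates 1 to 3 and of replicates 4 and 5 carried different gene lists, and this division was a covariate of every rank comparison. Any pair of libraries shared at most 104 barcodes, 1.70% of the smaller one. Cells were grouped by markers after the channel genes had been left out of the clustering, so that the channel genes did not divide the cells. The excitatory and inhibitory classes held their own markers. Summed excitatory markers had medians of 2134 CPM in excitatory neurons and 208 CPM in inhibitory neurons. CPM are counts scaled to a common total of UMIs in each library and cell group. Summed inhibitory markers had a median of 4002 CPM in inhibitory neurons. None of the 6 excitatory markers was at 0 in every library of any of the 9 main classes, and their sum had medians of 283 CPM in astrocytes, 254 CPM in endothelial cells, 385 CPM in microglia and 96.8 CPM in smooth muscle cells. Of 16217 excitatory cells, 2388 took no layer name, and of 2199 inhibitory cells, 598 took no type name.

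Channel RNA was widest in neurons. A median over libraries of at least 10 CPM was reached by 32 members in inhibitory neurons, 29 in excitatory neurons and 27 in oligodendrocyte precursors, against 17 to 19 in astrocytes, oligodendrocytes, microglia, endothelial cells, pericytes and smooth muscle cells. At least 100 CPM was reached by 15 members in inhibitory neurons, 12 in excitatory neurons, 3 in oligodendrocyte precursors and 0 in astrocytes. These levels are scaled to each library's total and not to gene length, so they compare 1 gene across cells and not genes with each other.

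At the other end, 9 members had under 100 UMIs over all kept cells. Scn4a, the skeletal muscle sodium channel, had 0 UMIs, Scn11a had 4 and Scn10a had 9, both being channels of sensory neurons. The skeletal muscle genes Cacng1 and Cacna1s had 8 and 49 UMIs, and the retinal channel Cacna1f had 30. Cacng6 was also in this range, with 49 UMIs, 24 of them in layer 5 pyramidal tract cells, as was Cacna2d4 with 87. Hcn4, the pacemaker channel of the heart, was low as well, with 0.851 to 5.69 CPM in excitatory neurons (median 2.63, 10 libraries). Of the 44 members, 24 overlap an annotated gene on the other strand and 9 on their own strand, and where a value could hold reads of such a neighbour the overlap was not resolved.

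**Figure D1:**
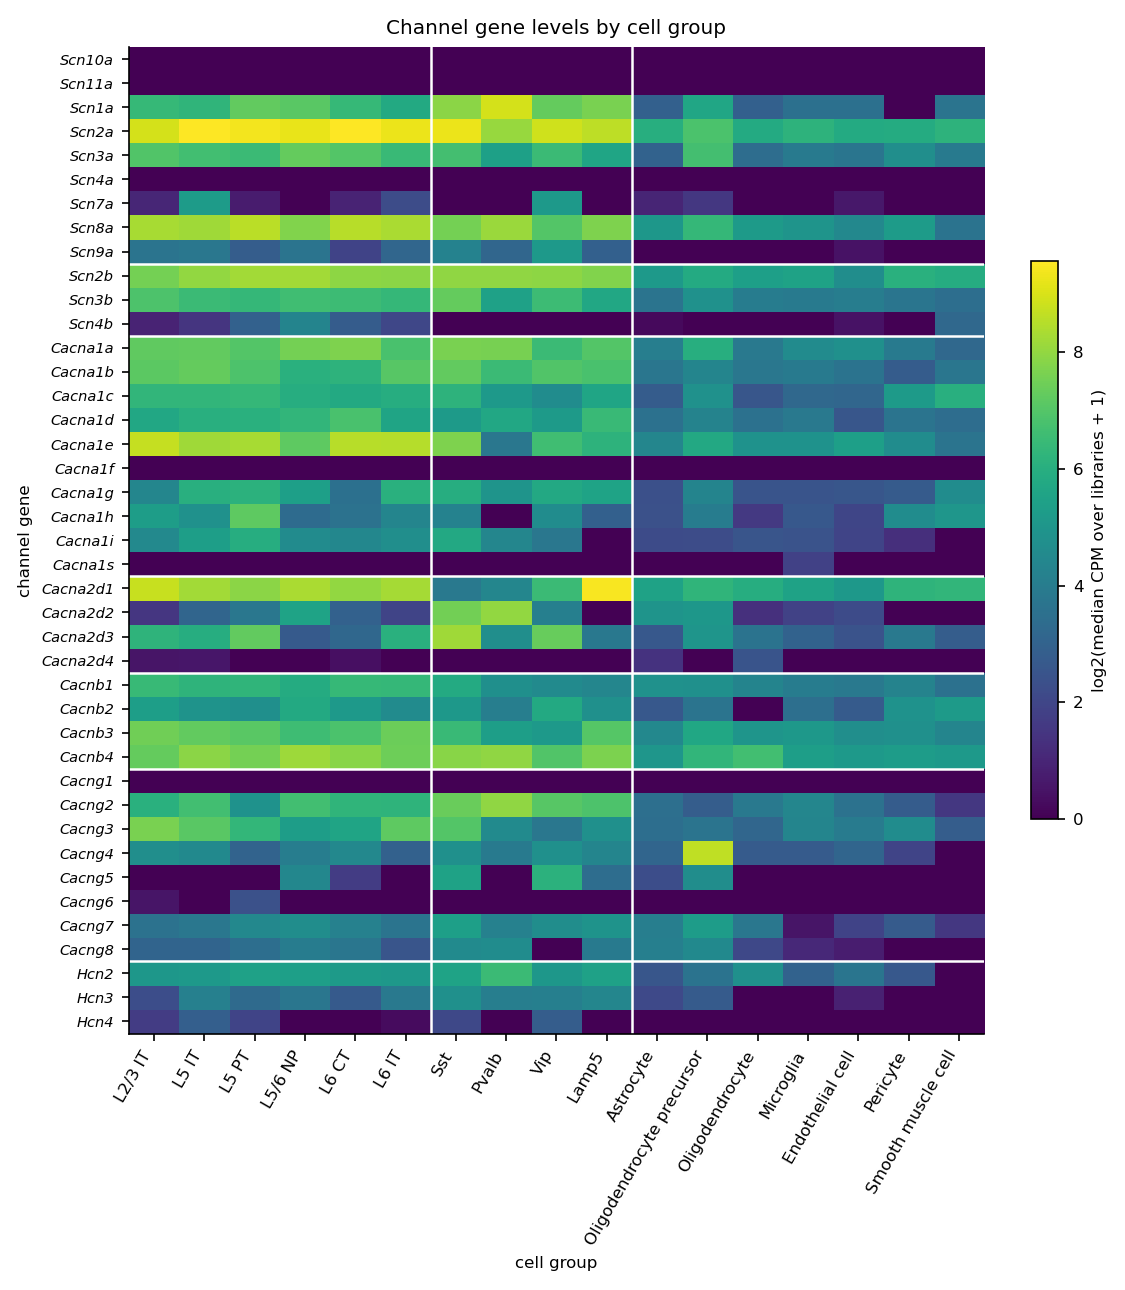
Median level over libraries of each of 41 channel genes (vertical axis, ordered by family, families parted by white lines) in 17 cell groups (horizontal axis), as log2 of CPM plus 1. Each gene is to be read across cell groups only; brighter fields are higher levels, neuronal columns are bright for most genes, and Cacng4 is brightest in oligodendrocyte precursors.

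Excitatory neurons held more RNA than astrocytes for nearly every channel gene tested. Of 44 members 34 had enough UMIs for the test, and 30 were higher in excitatory neurons and 3 lower, where 77.7% of all 13137 genes tested passed in either direction. The median log2 fold change of the tested members was 2.6, against 0.05 for all genes. Such counts over tested members carry no test of their own here or in the comparisons that follow, since the filter on low counts keeps genes that are high in at least 1 group. All 6 tested sodium channel alpha subunits, all 8 tested calcium alpha1 subunits and all 4 calcium beta subunits were higher.

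The main neuronal sodium channel Scn2a, which drives action potentials from the axon initial segment, lay between 393 and 847 CPM in excitatory neurons (median 609.5) and between 4.98 and 131 CPM in astrocytes (median 63.3). Its log2 fold change was 3.46 ± 0.31 (edgeR's quasi-likelihood test, Benjamini-Hochberg adjusted p = 8.6e-08). Values after ± are SEs derived from the F statistic of the test, unless marked as SD. Cacna1e, the R-type pore, lay between 226 and 520.1 CPM in excitatory neurons (median 299.9) and between 0 and 83.6 CPM in astrocytes (median 20), a log2 fold change of 3.67 ± 0.33 (edgeR, adjusted p = 9.81e-08). Neither pair of ranges overlapped. The astrocyte levels stood beside summed excitatory markers of 66.9 to 751 CPM in the same astrocytes, and how much of the channel RNA in astrocytes came from free RNA was not tested.

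Cacna2d2, an alpha2delta subunit, went the other way. It lay between 9.98 and 47.2 CPM in astrocytes (median 29.5) and between 2.63 and 13.4 CPM in excitatory neurons (median 8.02), and was lower in excitatory neurons in 10 of 10 libraries, with overlapping ranges (log2 fold change -2.11 ± 0.16, edgeR, adjusted p = 1.12e-08). The TARPs Cacng5 and Cacng8 were also lower in excitatory neurons, by log2 fold changes of -1.14 ± 0.31 and -0.78 ± 0.28. Of the channel partner genes, 30 of 32 were tested, and 26 were higher and 2 lower in excitatory neurons. Ank3, the scaffold of the axon initial segment, had a log2 fold change of 3.23 ± 0.37 and Unc80, of the sodium leak channel complex, one of 3.21 ± 0.26, while Gem, an inhibitor of calcium channels, was lower at -4.87 ± 0.26. With library size alone in place of composition scaling, the median log2 fold change of all genes in this comparison was 0.19. It was 0.05 in the reported fit, from which the printed fold changes come.

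Inhibitory and excitatory neurons differed by subunit. Of 35 tested members 10 were higher in inhibitory neurons and 13 lower, where 48.2% of 12598 genes passed in either direction, and the member median was 0.02 against -0.05 for all genes. Among pores, Scn1a and Scn9a were higher in inhibitory neurons and Scn2a, Scn8a, Cacna1e and Cacna1h were lower. All 3 tested alpha2delta subunits passed, with Cacna2d2 and Cacna2d3 higher and Cacna2d1 lower. Summed excitatory markers were 41.5 to 608 CPM (median 208) in inhibitory neurons and summed inhibitory markers 5.11 to 72.1 CPM (median 22.1) in excitatory neurons, and their part in these values was not tested.

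Scn1a, the sodium channel known for its role in interneuron firing, lay between 159 and 504 CPM in inhibitory neurons (median 228) and between 39.0 and 137 CPM in excitatory neurons (median 77.4), with no overlap. Its log2 fold change was 1.73 ± 0.09 (edgeR, adjusted p = 2.67e-16), and it was higher in 10 of 10 libraries. Scn2a lay between 299 and 666 CPM in inhibitory neurons (median 431), lower than in excitatory neurons in 10 of 10 libraries, with a log2 fold change of -0.50 ± 0.07. Scn8a, the channel of mature axon initial segments and nodes, had one of -0.59 ± 0.07 and Scn4b, a beta subunit, one of -2.16 ± 0.34. The beta subunits Scn2b and Scn3b had log2 fold changes of 0.02 ± 0.08 and -0.02 ± 0.08 and did not pass.

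Of the calcium channel pores, Cacna1e lay between 46.0 and 156 CPM in inhibitory neurons (median 106), against 226 to 520.1 CPM in excitatory neurons, ranges that did not overlap (log2 fold change -1.81 ± 0.09, edgeR, adjusted p = 2.06e-16). The T-type pore Cacna1h was lower as well (-1.40 ± 0.16), while the N-type pore Cacna1b and the T-type pore Cacna1g had values of 0.06 ± 0.09 and 0.03 ± 0.11 and did not pass. The L-type pore Cacna1c was called lower (-0.32 ± 0.09) but lost the call without rank 1 replicate 1 (-0.22, edgeR, adjusted p = 0.0654) and with a stricter filter on cells (-0.14, adjusted p = 0.3).

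Of the accessory subunits, Cacna2d2 lay between 95.2 and 201 CPM in inhibitory neurons (median 127) against at most 13.4 CPM in excitatory neurons, a log2 fold change of 4.11 ± 0.13 (edgeR, adjusted p = 4.4e-21) and the largest of any member here. Cacna2d3 was higher by 1.15 ± 0.11 and Cacna2d1 lower at -1.18 ± 0.08. The cytoplasmic beta subunits Cacnb1 and Cacnb3 were lower (-1.10 ± 0.11 and -1.06 ± 0.09).

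Among TARPs, Cacng2 (stargazin) was higher in inhibitory neurons (1.17 ± 0.07), as were Cacng7 (1.09 ± 0.15) and Cacng5, which lay between 7.08 and 35.3 CPM against 0 to 4.35 CPM (3.01 ± 0.30), without overlap. Cacng3 was lower (-1.0 ± 0.11). The HCN channels Hcn3 and Hcn2 were higher (0.82 ± 0.17 and 0.56 ± 0.10). Of 29 tested partners 6 were higher and 14 lower: Pex5l, which binds HCN channels and steers their traffic, was lower at -2.02 ± 0.14, and the sodium channel modulators Fgf11 and Fgf13 were higher at 3.00 ± 0.24 and 1.26 ± 0.11.

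The excitatory layers were each set against intratelencephalic (IT) cells of layers 2/3, which project within the cortex, so all 5 comparisons share that reference. Each tested 34 members. In layer 5 pyramidal tract (PT) cells, which project out of the cortex, 15 members were higher and 12 lower, a share of 79.4% where 38.2% of all 10524 genes tested passed. Hcn3, the T-type calcium channels and Scn1a were higher there, and 3 TARPs and Cacna2d1 were lower. The member median was 0.18, against -0.02 for all genes. The summed layer 5 IT markers had a median of 327 CPM in layer 5 PT cells, beside 361 CPM for their own list. In layer 2/3 IT cells the layer 5 IT markers had a median of 60.0 CPM. The part of these markers in the channel values was not tested.

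Hcn3, an HCN pore, lay between 3.04 and 20.6 CPM in layer 5 PT cells (median 8.90) and between 0 and 6.06 CPM in layer 2/3 IT cells (median 3.77), with overlapping ranges. Its log2 fold change was 1.43 ± 0.36 (edgeR, adjusted p = 0.00066, higher in 10 of 10 libraries). Hcn2 had a log2 fold change of 0.48 ± 0.15 (edgeR, adjusted p = 0.00765), which lost its call without rank 4 replicate 5 (0.34, adjusted p = 0.122). Pex5l, the HCN partner, had a log2 fold change of 1.82 ± 0.08 in layer 5 PT cells.

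All 3 T-type pores, which open near rest and support burst firing, were higher in layer 5 PT cells. Cacna1h lay between 53.1 and 158 CPM (median 146) against 19.2 to 52.5 CPM (median 39.3), without overlap (log2 fold change 1.70 ± 0.12, edgeR, adjusted p = 7.38e-24). Cacna1g lay between 30.9 and 109 CPM (median 70.2) against 7.66 to 29.9 CPM (median 19.8), also without overlap (1.66 ± 0.17). Cacna1i had a log2 fold change of 1.30 ± 0.16, higher in 10 of 10 libraries. The R-type pore Cacna1e was lower (-0.39 ± 0.07). Cacna2d3 was higher (154 against 73.6 CPM as medians, log2 fold change 0.97 ± 0.11) and Cacna2d1 lower (240.2 against 435 CPM as medians, -1.03 ± 0.08), each in 10 of 10 libraries. The beta subunits Cacnb2 and Cacnb3 were lower (-0.99 ± 0.16 and -0.37 ± 0.09).

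Of 6 tested sodium channel pores 3 were higher in layer 5 PT cells and 1 lower. Scn1a lay between 56.9 and 276 CPM in layer 5 PT cells (median 153) and between 48.5 and 114 CPM in layer 2/3 IT cells (median 83.8), higher in 9 of 10 libraries (log2 fold change 1.07 ± 0.09). Scn2a and Scn8a were higher too, with log2 fold changes of 0.42 ± 0.07 and 0.28 ± 0.08, and the beta subunit Scn2b one of 0.63 ± 0.08. Scn4b, known for resurgent sodium current, was sparse, with 83 UMIs in layer 5 PT cells against 13 in layer 2/3 IT cells, a log2 fold change of 2.99 ± 0.41. It was higher in 6 of 10 libraries and lower in 1.

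Of 6 tested TARPs 3 were lower in layer 5 PT cells and 1 higher. Cacng3 lay between 53.4 and 137 CPM (median 80.2) against 138 to 311 CPM (median 200.3), without overlap (log2 fold change -1.16 ± 0.10, edgeR, adjusted p = 3.22e-19). Cacng4 and Cacng2 had log2 fold changes of -1.60 ± 0.21 and -1.04 ± 0.13, lower in 10 of 10 libraries each. Cacng7 was called higher (0.76 ± 0.24) but not with a stricter filter on cells (0.38, edgeR, adjusted p = 0.39), with another random seed for the clusters (adjusted p = 0.0564) or with at least 50 cells per library (adjusted p = 0.0572). Of 27 tested partners 16 were higher and 4 lower, among the higher ones Rem2, an inhibitor of calcium channels (2.44 ± 0.48), Fam155a of the sodium leak channel (1.05 ± 0.10) and the node adhesion gene Nfasc (0.77 ± 0.10).

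Near-projecting (NP) cells of layers 5/6 and corticothalamic (CT) cells of layer 6 both had low levels of Cacna2d3, Cacng3 and Cacna1b against the same reference. In layer 5/6 NP cells 10 members were higher and 13 lower, where 34% of 10524 genes passed in either direction. In layer 6 CT cells 10 were higher and 14 lower, where 41.7% of genes passed. Member medians were -0.01 and -0.05, against 0.0035 and 0.01 for all genes. Layer 5/6 NP cells had a median of 3018 CPM for their own summed markers, beside 1021 CPM for the layer 5 IT list and 605 CPM for the layer 6 CT list. In layer 5 IT cells the layer 5 IT list had a median of 421 CPM. Layer 6 CT cells had 1418 CPM for their own list and 196 CPM for the layer 5 IT list. The part of these markers in the channel values was not tested.

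Cacna2d3 lay between 0 and 9.65 CPM in layer 6 CT cells (median 8.06) against 30.6 to 123 CPM in layer 2/3 IT cells (median 73.6), without overlap (log2 fold change -3.37 ± 0.16, edgeR, adjusted p = 3.8e-37). In layer 5/6 NP cells it lay between 0 and 44.5 CPM (median 5.46; -3.42 ± 0.27), where the highest value, of rank 1 replicate 2, rested on 3 UMIs and overlapped the reference. Cacng3 lay between 20.8 and 89.0 CPM in layer 5/6 NP cells and between 35.1 and 71.2 CPM in layer 6 CT cells, against 138 to 311 CPM, with log2 fold changes of -2.23 ± 0.15 and -1.87 ± 0.09. Cacna1b, the N-type pore of release sites, had log2 fold changes of -1.19 ± 0.13 and -1.02 ± 0.09. None of the ranges of Cacng3 and Cacna1b overlapped with the reference, and every one of the 8 libraries with both groups had the lower value. Cacna1e in layer 5/6 NP cells did not overlap either (89.0 to 200.5 CPM against 319 to 662 CPM, -1.81 ± 0.10). Cacna1h was lower in both groups (-1.64 ± 0.26 and -1.97 ± 0.17).

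Other members were higher in these cells. Cacna2d2 in layer 5/6 NP cells had a median of 45.4 CPM against 1.84 CPM (3.50 ± 0.33). Cacng5 rested on few counts in the reference, 54 UMIs in layer 5/6 NP cells and 62 in layer 6 CT cells against 4 in layer 2/3 IT cells, and was higher in both (4.90 ± 0.50 and 2.38 ± 0.57). Scn4b was higher in both as well (3.14 ± 0.47 and 2.42 ± 0.39). Cacnb4, a beta subunit of release sites, lay between 202 and 272 CPM in layer 6 CT cells against 138 to 194 CPM, without overlap (0.50 ± 0.08). Of 27 tested partners 3 were higher and 9 lower in layer 5/6 NP cells, and 13 were higher and 6 lower in layer 6 CT cells. The HCN partner Pex5l was lower in both (-1.43 ± 0.15 and -0.55 ± 0.09).

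**Figure D2:**
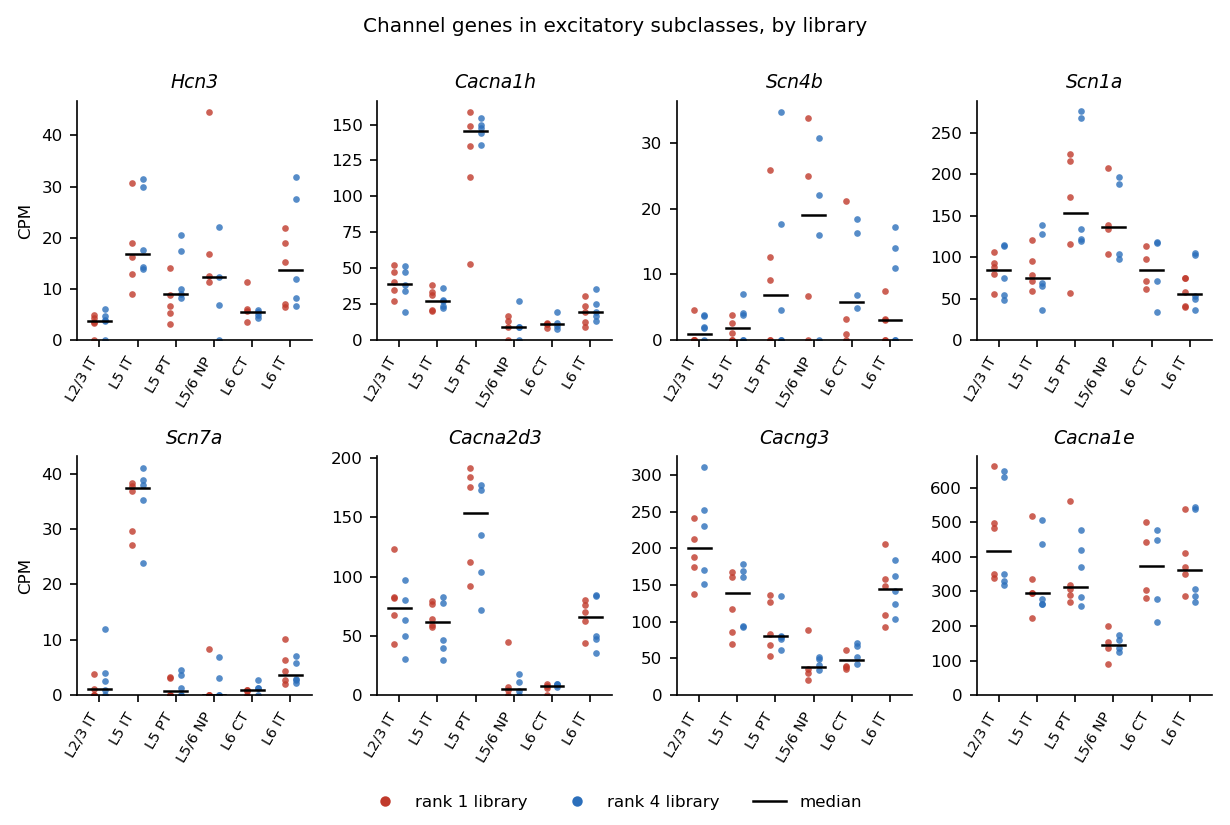
CPM of 8 channel genes in the excitatory subclasses, 1 point per library with rank 1 and rank 4 marked and a bar at the median. Cacna1h is highest in layer 5 PT cells (median 146 CPM), Scn7a in layer 5 IT cells, and Cacna2d3 is near 0 in layer 5/6 NP and layer 6 CT cells.

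Deep IT cells held more Hcn3 and Cacna1g than upper IT cells, and layer 5 IT cells held more Scn7a. In layer 5 IT cells 10 members were higher and 9 lower (34.4% of genes passed), and in layer 6 IT cells 7 were higher and 12 lower (33.9% of genes passed), with member medians of 0.07 and -0.17 against -0.01 and -0.01 for all genes. Scn7a, a sodium-sensing relative of the sodium channels, lay between 23.9 and 41.1 CPM in layer 5 IT cells (median 37.4, 439 UMIs) and between 0 and 12 CPM in layer 2/3 IT cells (median 1.02, 23 UMIs), without overlap. Its log2 fold change was 3.39 ± 0.26 (edgeR, adjusted p = 1.01e-21). In the other excitatory subclasses its medians lay between 0 and 3.69 CPM, and in Vip interneurons the median was 34.4 CPM (31 UMIs).

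Hcn3 lay between 9.07 and 31.6 CPM in layer 5 IT cells and between 6.40 and 31.8 CPM in layer 6 IT cells, against 0 to 6.06 CPM in layer 2/3 IT cells, without overlap (2.12 ± 0.27 and 1.57 ± 0.31). The T-type pore Cacna1g was higher in both groups (1.68 ± 0.14 and 1.60 ± 0.15, in 10 of 10 libraries each), Cacna1i was higher in layer 5 IT cells (0.96 ± 0.15), and Cacna1h was lower in both (-0.56 ± 0.13 and -0.75 ± 0.15). Lower in both were also Cacna2d1 (-0.60 ± 0.07 and -0.62 ± 0.07), Cacng3 (-0.73 ± 0.08 and -0.44 ± 0.08) and Cacnb2 (-0.74 ± 0.12 and -0.72 ± 0.13). Cacng4 was lower in layer 6 IT cells (-1.83 ± 0.18), and Cacng2 was higher in layer 5 IT cells (0.59 ± 0.09).

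The IT groups depended on how the cells were divided. Layer 5 IT held 3298 cells, but 1768 with another random seed for the clusters and 2775 at a finer clustering resolution, and with the other seed 14 members were higher and 6 lower in it. Cacna1e in layer 5 IT cells was called lower (-0.43 ± 0.07) but not with that seed (-0.14, edgeR, adjusted p = 0.162), and the same held for Scn3a (-0.29 ± 0.08, then -0.08, adjusted p = 0.591). In layer 6 IT cells the P/Q-type pore Cacna1a (-0.40 ± 0.08) and Scn1a (-0.32 ± 0.09) were called lower, with adjusted p-values of 0.0603 and 0.0823 by edgeR with that seed.

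Interneuron types differed in which alpha2delta subunit they held. The reference was somatostatin (Sst) cells, and the 3 comparisons with it each tested 25 members. In Lamp5 cells 5 were higher and 11 lower (30.8% of 5230 genes passed in either direction), in parvalbumin (Pvalb) cells 8 and 11 (23.3%), and in Vip cells 1 and 11 (23.6%). The member medians were -0.19, -0.36 and -0.43, against 0.004, 0.01 and -0.02 for all genes. These groups held 289 to 507 cells each, and Sst cells fell from 441 to 283 with the channel genes allowed into the clustering. The Pvalb group also held Sst markers: the 5 genes of the Sst list summed to 350 to 7998 CPM (median 1253) there, with Chodl at 0 in all libraries, against 912 to 2403 CPM (median 1358) for its own 5 markers. In Sst cells the Sst list summed to 3797 to 22841 CPM (median 13555) and the Pvalb list to 0 to 40.8 CPM (median 9.70). In Lamp5 and Vip cells the Sst list had medians of 81.4 and 293 CPM. The part of these markers in the channel values was not tested.

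Cacna2d1, a binding site of gabapentin drugs, lay between 533 and 1213 CPM in Lamp5 cells (median 703, 893 UMIs) and between 0 and 48.2 CPM in Sst cells (median 13.4, 42 UMIs), without overlap. The log2 fold change was 5.26 ± 0.20 (edgeR, adjusted p = 2.55e-47), in 8 of 8 libraries with both types. In Vip cells it lay between 0 and 212 CPM (median 91.7; 2.41 ± 0.29), and in Pvalb cells, with 0 to 36.6 CPM, the log2 fold change of 0.001 ± 0.14 did not pass.

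Cacna2d2 and Cacna2d3 had their lowest medians in Lamp5 cells, where Cacna2d1 was highest. Cacna2d2 lay between 88.7 and 226 CPM in Sst cells (median 183), between 160.2 and 365 CPM in Pvalb cells (median 260.2), between 0 and 36.1 CPM in Vip cells (median 16.3) and between 0 and 9.75 CPM in Lamp5 cells (median 0). Vip cells were lower than Sst cells without overlap (-3.08 ± 0.29). For Lamp5 cells, with 3 UMIs against 326, the ratio of pooled CPM was 61.9 in favour of Sst cells (95% exact interval 21.0 to 302, which covers counting error only), and the difference passed (edgeR, adjusted p = 3.86e-25). Pvalb cells were called higher (0.75 ± 0.14, edgeR, adjusted p = 5.65e-06), but the value was 0.43 with the channel genes allowed into the clustering (adjusted p = 0.0418) and 0.18 with another random seed (adjusted p = 0.476).

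Cacna2d3 lay between 148 and 458 CPM in Sst cells (median 291) and between 0 and 38.2 CPM in Lamp5 cells (median 13.2; -4.21 ± 0.28), and between 0 and 91.2 CPM in Pvalb cells (median 25.4; -3.45 ± 0.21), both without overlap. In Vip cells it lay between 81.3 and 229 CPM (median 160.5; -0.97 ± 0.18), a value that was -0.58 with another random seed (edgeR, adjusted p = 0.0144). By medians Lamp5 cells were highest in Cacna2d1, Pvalb and Sst cells in Cacna2d2, and Sst cells in Cacna2d3, the genes whose start regions are printed above.

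Among sodium channels, Scn1a lay between 152 and 790.4 CPM in Pvalb cells (median 496) and between 121 and 550.4 CPM in Sst cells (median 236), higher in 8 of 9 libraries (log2 fold change 1.08 ± 0.13). Scn2a went the other way, with 210.2 to 356 CPM in Pvalb cells (median 272) against 461 to 1063 CPM in Sst cells (median 623), without overlap (-1.16 ± 0.12, edgeR, adjusted p = 2.95e-14). Scn3a and the beta subunit Scn3b were lower in Pvalb cells (-1.40 ± 0.20 and -1.64 ± 0.19), and Scn8a was higher (0.55 ± 0.13). In Vip cells Scn8a was lower (-0.71 ± 0.18), or -1.09 when the channel genes were allowed into the clustering. Scn1a was called lower there (-0.53 ± 0.18), with values between -0.39 (edgeR, adjusted p = 0.124, without rank 1 replicate 4) and -0.91 (adjusted p = 4.99e-06, channel genes allowed), and it lost the call without rank 1 replicate 2 as well (adjusted p = 0.0518). Lamp5 cells had lower Scn2a (-0.53 ± 0.12), Scn3a (-0.95 ± 0.21) and Scn3b (-1.34 ± 0.21).

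Of the calcium pores, Cacna1e was lower than in Sst cells in all 3 types. It lay between 109 and 259 CPM in Sst cells (median 207), between 0 and 80.5 CPM in Pvalb cells (median 12.8; -2.31 ± 0.20), between 24.2 and 134 CPM in Lamp5 cells (median 72.5; -1.44 ± 0.21) and between 50.1 and 179.5 CPM in Vip cells (median 97.6; -1.01 ± 0.21). The Pvalb range did not overlap with the Sst range. Cacng3 was likewise lower in Pvalb, Lamp5 and Vip cells (-2.26 ± 0.23, -2.12 ± 0.27 and -2.43 ± 0.30). Cacng2 was higher in Pvalb cells (0.73 ± 0.14, in 8 of 9 libraries), and Cacng5 had 3 UMIs in Pvalb cells against 64 in Sst cells, a pooled ratio of 22.2 in favour of Sst cells (7.27 to 111). In Lamp5 cells the L-type pore Cacna1d and the beta subunit Cacnb3 were higher (0.71 ± 0.21 and 0.72 ± 0.21), and in Vip cells the P/Q-type pore Cacna1a and the beta subunit Cacnb4 were lower (-0.69 ± 0.20 and -0.84 ± 0.18).

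The HCN channel Hcn2 lay between 0 and 109.9 CPM in Pvalb cells (median 90.1) and between 14.8 and 74.8 CPM in Sst cells (median 46.3), higher in 8 of 9 libraries (log2 fold change 0.77 ± 0.22, edgeR, adjusted p = 0.004). Of 21 tested partners, 4 were higher and 6 lower in Lamp5 cells, 1 and 3 in Pvalb cells, and 0 and 1 in Vip cells. Lamp5 cells had more Fgf13 (2.21 ± 0.17) and Rimbp2, which ties calcium channels to release sites (2.37 ± 0.17), and less Fam155a (-1.85 ± 0.30).

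**Figure D3:**
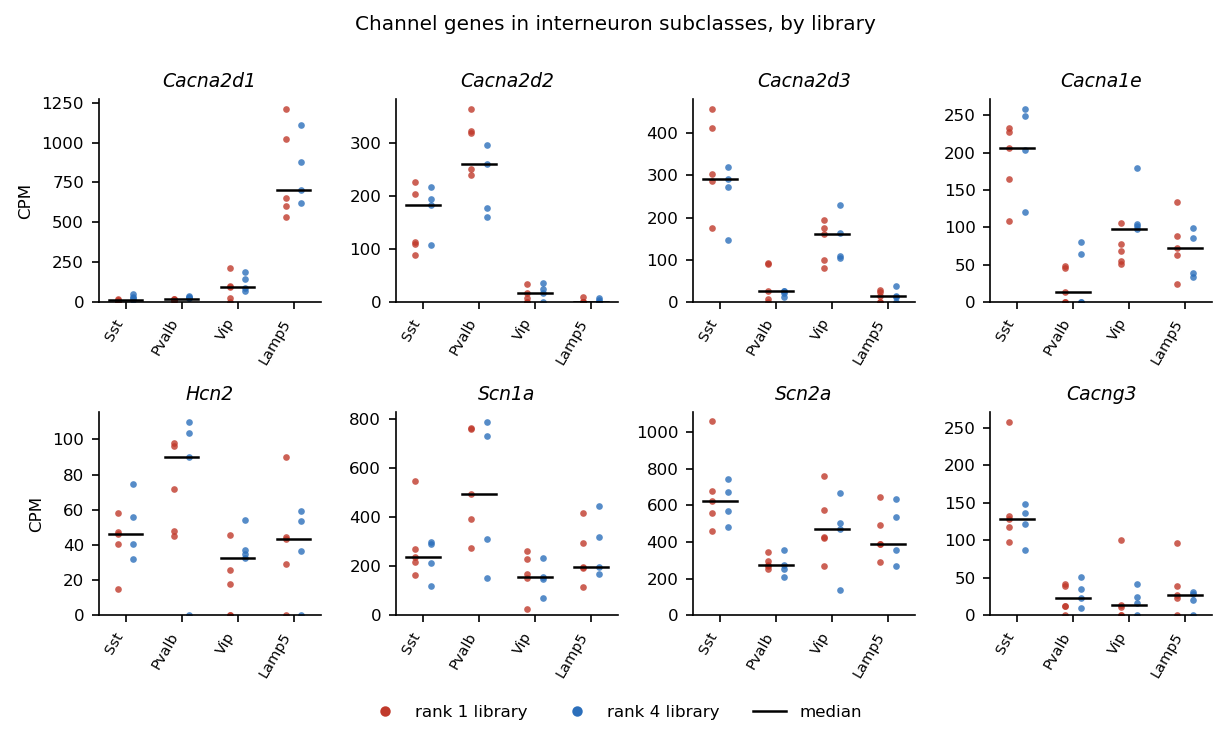
CPM of 8 channel genes in the interneuron subclasses, 1 point per library with rank 1 and rank 4 marked and a bar at the median. Cacna2d1 is highest in Lamp5 cells (median 703 CPM), Cacna2d2 in Pvalb and Sst cells, and Scn1a has its highest median in Pvalb cells (496 CPM).

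Oligodendrocyte precursors held more channel RNA than the oligodendrocytes they give rise to, led by Cacng4. Of 26 tested members 13 were higher in precursors and 3 lower, where 47.9% of 8705 genes passed in either direction, and the member median was 0.46 against 0.05 for all genes. With library size alone that median of all genes was 0.43, and with DESeq2 scaling 0.27. The size of a fold change thus depends on the scaling, and those printed are from the reported fit. With the TMM scaling of the reported fit, 25.4% of all genes were higher and 22.5% lower. The members' count was 19 higher and 1 lower with library size, where 48.8% of all genes were higher and 12.5% lower. With DESeq2 it was 16 higher and 2 lower, where 33.7% of all genes were higher and 15% lower. The ranges of Cacng4, Cacng5, Cacng8 and Scn3a, all higher in precursors, did not overlap between the groups.

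Cacng4 (ENSMUSG00000020723, chr11:107732357-107794557 on GRCm38, minus strand), a TARP, lay between 273 and 664 CPM in precursors (median 395) and between 0 and 19.8 CPM in oligodendrocytes (median 5.64), higher in 10 of 10 libraries (log2 fold change 5.92 ± 0.23, edgeR, adjusted p = 1.23e-22). Committed precursors, the stage between them, lay between 59.6 and 151 CPM (median 91.6, 7 libraries), and the largest value in excitatory neurons was 26.2 CPM. Scn3a, a sodium channel of immature neurons, lay between 50.4 and 125 CPM in precursors (median 103) against 0 to 29.8 CPM (median 9.58; 2.14 ± 0.23). Scn1a (1.89 ± 0.24), Cacna1c (1.66 ± 0.31), Cacna1a (1.39 ± 0.20), Cacna1d (1.35 ± 0.25), Cacna2d2 (3.1 ± 0.38), Cacng5 (3.47 ± 0.45) and Cacng8 (1.72 ± 0.38) were higher as well.

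Hcn2 was lower in precursors, with 0 to 34.4 CPM (median 11.4) against 0 to 99.9 CPM in oligodendrocytes (median 27.1), in 7 of 10 libraries (log2 fold change -1.81 ± 0.27, edgeR, adjusted p = 3.51e-07), and it was -1.17 without rank 4 replicate 5 (adjusted p = 0.00219). The beta subunit Cacnb4 was called lower (-0.65 ± 0.15), with -0.27 by library size (edgeR, adjusted p = 0.11) and -0.43 by DESeq2 (adjusted p = 0.0301). The HCN partner Pex5l was lower in precursors as well (-3.75 ± 0.18), and of 24 tested partners 10 were higher and 6 lower in precursors. Excitatory markers had medians of 286 CPM in precursors and 294 CPM in oligodendrocytes, and their part in these values was not tested.

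Vascular smooth muscle cells held more RNA of several calcium channel genes than endothelial cells. Of 18 tested members 8 were higher and 0 lower, where 39.9% of 7226 genes passed in either direction. At an unadjusted p under 0.05 by edgeR, 9 were higher and 0 lower, where 46.1% of all genes had such a p. Without rank 1 replicate 2 only 13 members had enough UMIs for the test and 5 were higher, where 38.2% of all genes passed. The 8 libraries with enough smooth muscle cells entered, whose summed pericyte markers lay between 2969 and 11824 CPM. Summed excitatory markers were 46.6 to 938 CPM (median 96.8) in smooth muscle cells and 59.0 to 908 CPM (median 254) in endothelial cells, and the part of either list in these values was not tested.

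Cacna1c, the L-type pore of vascular muscle, lay between 23.5 and 127 CPM in smooth muscle cells (median 63.7) and between 1.42 and 15.9 CPM in endothelial cells (median 7.89), without overlap (log2 fold change 2.99 ± 0.34, edgeR, adjusted p = 2.66e-08). The T-type pore Cacna1h lay between 8.43 and 54.5 CPM (median 31.1) against 0 to 8.67 CPM (median 2.96; 3.16 ± 0.49), in 8 of 8 libraries. Cacnb2 (2.72 ± 0.42), Cacna1g (1.94 ± 0.56) and Cacna2d1 (1.55 ± 0.31) were higher too, and so was the sodium beta subunit Scn2b (1.34 ± 0.32). Pericytes, which share the vessel wall, had medians of 36.3 CPM for Cacna1c, 24.1 CPM for Cacna1h and 28.4 CPM for Cacnb2 over 10 libraries, beside summed smooth muscle markers of 843 to 4287 CPM.

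The last 2 members called were sparse. Scn4b passed (3.07 ± 0.79, edgeR, adjusted p = 0.00235) but not with DESeq2 (3.2, adjusted p = 0.268), with 10 of its 22 UMIs in 1 library, rank 1 replicate 2. Scn3a passed (1.32 ± 0.51, edgeR, adjusted p = 0.0404) and lost the call under 7 settings, among them the omission of rank 1 replicates 2, 3 or 5 (adjusted p = 0.101, 0.059 and 0.0644) or of rank 4 replicate 2 (adjusted p = 0.068). Among 20 tested partners 5 were higher, Rrad, an inhibitor of calcium channels, by a log2 fold change of 4.45 ± 0.22, and 0 were lower.

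**Figure D4:**
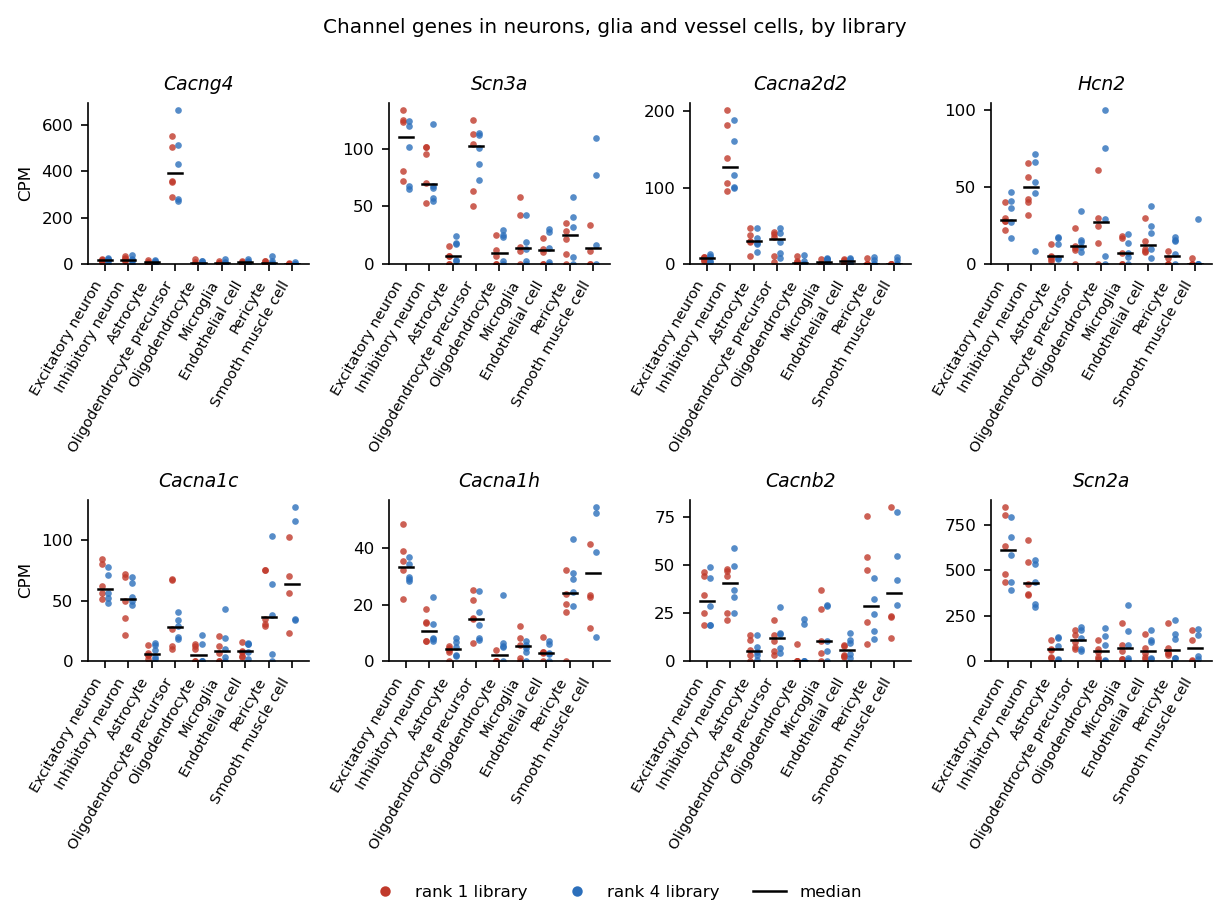
CPM of 8 channel genes in 9 cell classes, 1 point per library with rank 1 and rank 4 marked and a bar at the median. Cacng4 stands out in oligodendrocyte precursors, Cacna1c, Cacna1h and Cacnb2 have higher medians in smooth muscle cells than in endothelial cells, and Scn2a is above 0 in most non-neuronal libraries.

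Between rank 1 and rank 4 no channel gene passed in any cell group without the replicate number as a block. With that block, which sets same-numbered libraries of the ranks against each other, 3 passed in astrocytes, Scn3a, Cacna1e and Scn1a, all lower in rank 1, with their values given below. In the fit without it, over 9 classes 176 member tests gave 0 calls by edgeR and by DESeq2, and 2 had an unadjusted p under 0.05 (1 higher and 1 lower in rank 1), a share of 1.14% where it was 2.37% of all 69499 tests. Over 10 subclasses 224 member tests gave 0 calls and 7 at an unadjusted p under 0.05 (0 higher, 7 lower), or 3.12% where it was 3.85% of 66113 tests. The background was 0 calls over all genes in each group as well, or 0%, and for no member did the ranges of the ranks part. The smallest adjusted p of a member was 0.999 in classes and 0.999 in subclasses. Each library pools mice, so these tests measure the spread between pooled libraries.

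The values with the smallest unadjusted p are given as a description. Cacnb3, a beta subunit, had 59.5, 70.5, 74.4, 36.9 and 67.3 CPM in the inhibitory neurons of rank 1 replicates 1 to 5 and 103, 116, 99.8, 65.9 and 88.0 CPM in those of rank 4. Each rank 1 value was below its same-numbered rank 4 value, though the ranges overlapped. The log2 difference was -0.58 ± 0.20 (edgeR, adjusted p = 1), -0.64 in replicates 1 to 3 alone and -0.54 in replicates 4 and 5 alone. Hcn2 in layer 6 IT cells had 20.9, 15.8, 30.7, 26.5 and 42.4 CPM in rank 1 and 33.9, 31.8, 52.5, 40.7 and 49.6 CPM in rank 4, lower in 5 of 5 pairs with overlapping ranges (-0.52 ± 0.22, edgeR, adjusted p = 1; -0.81 and -0.33 in the same divisions).

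Cacnb4, a beta subunit of release sites, had 119.6, 96.3, 131, 142 and 205 CPM in the layer 5 PT cells of rank 1 and 222, 216, 225, 172 and 224 CPM in those of rank 4, a log2 difference of -0.54 ± 0.20. By division it was -0.91 for replicates 1 to 3 and -0.15 for replicates 4 and 5. Cacna2d3 in excitatory neurons had 55.2, 53.6, 54.4, 75.5 and 58.9 CPM in rank 1 and 42.9, 36.7, 39.4, 65.4 and 65.9 CPM in rank 4 (0.28 ± 0.12), with 0.44 and 0.05 in the same divisions. Both sets of ranges overlapped. Cacng2 in layer 5 PT cells (-0.84 ± 0.32), Cacng3 in layer 6 CT cells (-0.45 ± 0.18), and Cacna1i (-1.15 ± 0.57) and Hcn2 (-0.91 ± 0.46) in astrocytes were also named by rule and did not pass.

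In astrocytes 25 of 28 tested members had a negative log2 difference (median -0.41, against -0.02 for all genes), and in endothelial cells 20 of 20 (median -0.48, against -0.01). Negative differences also outnumbered positive ones in pericytes (7 of 8, median -0.28), oligodendrocytes (7 of 9, median -0.21), microglia (10 of 16, median -0.29) and oligodendrocyte precursors (14 of 23, median -0.08), but not in smooth muscle cells (2 of 5, median 0.15). Summed excitatory markers, 6 genes that mark another class, had a lower mean in rank 1 in each of these groups measured: 273 ± 236 CPM in rank 1 against 413 ± 325 CPM in rank 4 in astrocytes (SD, n = 5 each, lower in 5 of 5 pairs), and 267 ± 255 CPM against 437 ± 363 CPM in endothelial cells (SD, n = 5 each, lower in 4 of 5 pairs). They were lower in 4 of 5 pairs in pericytes, 4 of 5 in oligodendrocytes, 3 of 5 in microglia and 3 of 5 in oligodendrocyte precursors, and were not summed in smooth muscle cells. The part of this RNA in the channel values was not tested.

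Scn3a in astrocytes had 7.28, 0, 0, 6.70 and 15.3 CPM in rank 1 and 18.7, 3.32, 2.59, 17.2 and 24.7 CPM in rank 4, with a log2 difference of -1.01 ± 0.56 that did not pass. With the replicate number as a block it did (-1.15 ± 0.28, edgeR, adjusted p = 0.023). So did Cacna1e (-0.88 ± 0.20, edgeR, adjusted p = 0.0147), with 22.2, 6.37, 0, 17.9 and 61.0 CPM in rank 1 and 33.5, 6.64, 5.19, 74.4 and 83.6 CPM in rank 4, and Scn1a (-0.95 ± 0.27, edgeR, adjusted p = 0.0494), with 7.64, 3.19, 0, 5.58 and 22.2 against 11.7, 1.66, 1.56, 25.8 and 36.8 CPM. These were 3 of 29 members, where 1.56% of 11694 genes passed with the block, and the ranges of the ranks overlapped for all 3. Scn3a and Cacna1e were lower in rank 1 in 5 of 5 pairs and Scn1a in 4 of 5, beside the excitatory markers given above, which were lower in 5 of 5. With the block 17 of 29 members in astrocytes had an unadjusted p under 0.05, all lower, where 13.2% of genes had one, and no member passed in any other class or subclass. In endothelial cells 12 of 20 members had an unadjusted p under 0.05 with the block, all lower in rank 1, where 10.9% of 9569 genes had one, and 0 passed after adjustment, where 0.575% of genes did. Of 403 tests of partner genes between ranks 0 passed and 9 had an unadjusted p under 0.05.

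**Figure D5:**
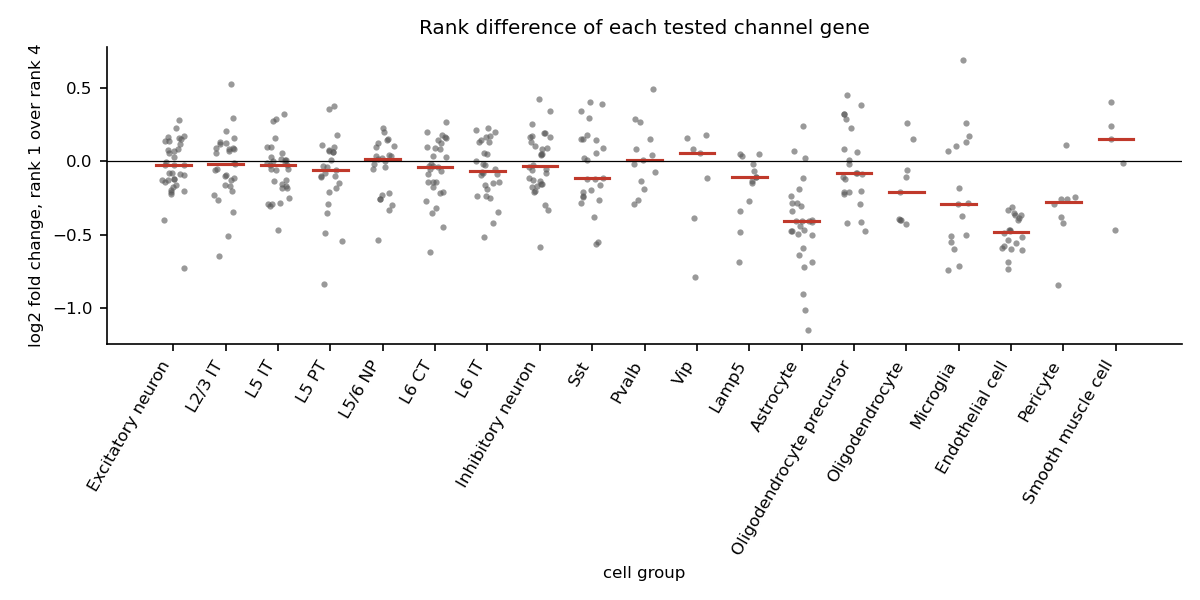
Log2 difference, rank 1 over rank 4, of each tested channel gene (points) in each class and subclass (columns), with the median of the members as a red line. Medians lie closer to 0 in neurons, from -0.11 to 0.06, and below 0 in endothelial cells (-0.48), astrocytes (-0.41), microglia (-0.29), pericytes (-0.28) and oligodendrocytes (-0.21), and no point passed the adjusted threshold in the fit without the replicate block, which is drawn.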

How the data were processed

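Single-cell RNA was counted with 10x Chromium in 10 libraries, 5 of rank 1 and 5 of rank 4. The deposited matrices hold raw UMI counts per gene and cell barcode. Cell Ranger 4.0.0 and mm10 are named per the submitters' processing notes, while the file headers name software version 3.1.0 for replicates 1 to 3 and 4.0.0 for replicates 4 and 5, with 31053 and 32285 genes. The 30406 shared genes, which hold 99.4% to 99.9% of UMIs, were used.

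Cells with at least 500 genes and at most 15% mitochondrial UMIs were kept, and 4007 were removed as doublets (Scrublet method with exact neighbours in double precision, assumed rate 0.06). In 1 library, rank 1 replicate 1, the caller found no usable threshold and the median of the others, 0.221, was applied. Clustering (Python 3.11.15, scanpy 1.11.5, igraph 0.11.9) used 2000 variable genes without the 44 members, 30 components, 15 neighbours and resolution 1. Components and neighbour weights were rounded to fixed steps. Clusters were named from marker lists, with at least 3 markers in 10% of cells, and otherwise left unnamed. The doublet caller and the clustering were revised after earlier results of these data had been seen, to obtain a caller that worked and clusters that repeat on other machines. Counts were summed per library and cell group, with at least 20 cells, or 10 for interneurons. They were tested with edgeR 4.0.16 (quasi-likelihood, TMM scaling, limma 3.58.1, R 4.3.3), with Benjamini-Hochberg adjustment over all genes tested and a threshold of 0.05. The SE of a log2 fold change was derived as its absolute value over the square root of the F statistic. It is not a value that the fit itself reports. Comparisons of cell groups had the library as a block, and comparisons of rank had the gene-list version as a covariate. Levels are CPM, counts scaled to a common total of UMIs in each group and library. Exact 95% intervals on pooled counts cover counting error only.

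Named members were drawn from those past the threshold, up to 25 per comparison, by absolute log2 fold change, and not all of these are printed; where none passed, the 5 with the smallest unadjusted p over classes and over subclasses; and up to 5 partner genes per comparison, from 7 lists. Scn1a and Cacna1e in astrocytes were named after their blocked values were seen, and values that did not pass are named where they complete a family. Cacna2d2, Cacng5 and Cacng8 passed between excitatory neurons and astrocytes but were outside the 25. They are named as the 3 lower members, and are not among the 284 gene and comparison pairs followed across settings. The members and lists were chosen with earlier results of these data known. Alternatives were DESeq2 1.42.0, library size alone, no filter on low counts, a stricter cell filter (800 genes, 10% mitochondrial), the top 10% of doublet scores removed, resolution 1.5, the members allowed in clustering, a minimum of 50 cells (20 for interneurons), each library left out and the replicate number as a block. Another random seed for the clusters was added after seeing the data. Same-numbered libraries of the ranks deviated together in excitatory neurons (correlations 0.709, 0.785, 0.726, 0.808 and 0.883 over 12669 genes). Replicates 2 and 3, and replicates 4 and 5, also correlated across numbers (0.737 to 0.878), in part more closely than within a number. Rank 1 replicate 3 had 0.754 with rank 4 replicate 2 and 0.726 with rank 4 replicate 3. Rank 4 replicate 4 had 0.878 with rank 1 replicate 5 and 0.808 with rank 1 replicate 4. The check therefore sets replicate 1, replicates 2 and 3, and replicates 4 and 5 apart, but does not pair single numbers within these sets. The labels do not state what a number shares. Some members are counted in the totals but not reported here by name. The code was tested on simulated data.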

Additional observations from a re-analysis of the deposited data

Results flagged for a closer look

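Single libraries stood apart from the other libraries of their rank in 12 of 88 groups of values examined. For continuous values about 1 group in 20 would by chance, a rate that does not hold for sparse counts: in 5 of the 12 all other libraries of the rank were at 0, so that a few UMIs were enough. Most of the 12 rested on few UMIs. Cacna2d3 in layer 5/6 NP cells was at 44.5 CPM (3 UMIs) in rank 1 replicate 2, Cacng3 in layer 6 CT cells at 62.1 CPM (11 UMIs) in rank 1 replicate 3, and Scn4b in inhibitory neurons at 0.885 CPM (1 UMI) in rank 1 replicate 5. In interneuron types, Cacna2d2 was at 9.75 CPM (1 UMI) in Lamp5 cells of rank 1 replicate 1, and Cacng5 in Pvalb cells was at 7.96 CPM (2 UMIs) in rank 1 replicate 4 and at 2.87 CPM (1 UMI) in rank 4 replicate 4. In Vip cells Cacng3 was at 100 CPM (4 UMIs) in rank 1 replicate 3. Scn4b in smooth muscle cells was at 37.8 CPM (10 UMIs) in rank 1 replicate 2. With more UMIs behind them, Scn4b in layer 6 CT cells was at 21.2 CPM in rank 1 replicate 5, Cacna2d3 in excitatory neurons at 75.5 CPM in rank 1 replicate 4, Hcn2 in astrocytes at 13.1 CPM in rank 1 replicate 5 and Cacnb4 in layer 5 PT cells, the only low one, at 172 CPM in rank 4 replicate 4.

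In 4 cases every pair of libraries had a higher rank 1 value of a gene in one cell group and a lower one in another. The log2 difference of Scn3a was 0.355 in layer 5 PT cells and 0.172 in excitatory neurons, against -1.01 in astrocytes. That of Cacna1a was 0.319 in oligodendrocyte precursors and -0.475 in astrocytes, and that of Scn1a was 0.194 in inhibitory neurons and -0.332 in endothelial cells. The lower side was always astrocytes or endothelial cells, where 25 of 28 and 20 of 20 tested members had a negative log2 difference. Summed excitatory markers were lower in rank 1 there too, in 5 of 5 and 4 of 5 pairs. The differences between groups were not tested.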

How the results depend on the processing

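Counts of members past the threshold without any 1 library were 33 to 34 for excitatory neurons against astrocytes (33 as reported), 22 to 24 for inhibitory against excitatory neurons (23), 103 to 115 over the excitatory subclasses (112), 42 to 52 over the interneuron types (47), 13 to 16 for oligodendrocyte precursors (16), 5 to 8 for smooth muscle cells (8, with 5 without rank 1 replicate 2, where fewer genes were tested) and 0 for rank. Under the other settings they were 33 to 36, 22 to 26, 105 to 116, 42 to 56, 12 to 20 and 6 to 8. With the replicate number as a block, 3 members passed between ranks in the classes, all in astrocytes, and 0 in the subclasses, and the block changed no other call between ranks. The naming rule covers 284 gene and comparison pairs between cell groups, not all of which are printed. Of these, 40 lost their call under some setting that still tested the gene, 24 of them without 1 library, and 0 reversed. Calls lost because a gene had too few UMIs to be tested are not in these counts. In smooth muscle cells, 18 members were tested as reported and 13 without rank 1 replicate 2. Of the 40, 5 in layer 5 IT and layer 6 IT cells lost the call with redrawn clusters. The cause was not tested. Sparse interneuron and vessel groups limit what low members can show.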
